A study of Mus musculus with 8 samples.

Results

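Cytosolic aminoacyl-tRNA synthetases, the enzymes of serine and one-carbon metabolism and the target genes of the stress factor Atf4 were compared in Nrp-1+ against Nrp-1- iTreg. The set holds 35 genes, taken by symbol from the 23361 genes of the deposited table. They are 20 cytosolic tRNA synthetase genes under their older symbols, 6 serine and one-carbon enzymes, 3 enzymes of asparagine and proline synthesis, and Atf4 with 5 stress response genes. All 35 were listed, and 33 reached the mean FPKM (sequenced fragments scaled to the length of the gene and to the depth of the library) of at least 1 that was required for testing, as 10467 genes did in all. Chac1 and Pycr1 did not.

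Naive CD4+ T cells of Foxp3-RFP reporter mice, wild type by their labels, were activated with anti-CD3/CD28 beads, IL-2 at 50 U/ml and TGF-β at 2 ng/ml for 3 days, which yields iTreg, regulatory T cells induced in culture. The time field of the labels gives day 5, and the study's methods give the IL-2 concentration by weight instead of in units. Viable CD4+ Foxp3-RFP+ cells were sorted by surface Nrp-1 into the Nrp-1+ subset (4 libraries) and the Nrp-1- subset (4 libraries), labelled as biological replicates 1 to 4. Both groups thus shared genotype and stimulation, and no untreated culture was analysed here. The labels do not say which animals or cultures the replicates came from, so the p-values measure the spread between these samples, which may be technical.

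A tRNA synthetase joins an amino acid to its tRNA, and most amino acids have an enzyme of their own. Proliferating T cells also make serine from a glycolytic intermediate and pass its carbon through folate enzymes into nucleotides. When amino acids run short or proteins misfold, kinases phosphorylate eIF2alpha, and the mRNA of Atf4 is then translated more although general translation falls. Atf4 protein binds C/EBP-ATF response elements near many synthetase, serine, asparagine and stress genes. Its activity is therefore set largely at the level of protein, which RNA sequencing does not measure.

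The core of this element, TGATGNAA on either strand, was searched in RefSeq promoters (build GRCm38.p6, 250 bases before to 50 after the start site). Promoters were found for 28 of the 35 genes, Mars under its newer symbol, and none were used for Cars, Hars, Lars, Nars, Rars, Vars and Wars. The motif was in 9 of 29 promoters (31.0%), against 3.97% of all 32851 promoters in the table. The set was chosen in part as target genes of Atf4, so this comparison describes the choice of genes and not the iTreg libraries. Such a match is a stretch of letters and not a shown binding site. For each of these 9 genes a match is printed below, 5′ to 3′ on the strand of the gene, with the motif in capitals, because they show which genes carried the element.
Asns: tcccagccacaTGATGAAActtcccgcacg
Aars: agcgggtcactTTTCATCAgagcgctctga
Gars: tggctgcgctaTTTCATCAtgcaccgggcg
Iars: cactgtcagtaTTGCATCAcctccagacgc
Tars: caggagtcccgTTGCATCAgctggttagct
Yars: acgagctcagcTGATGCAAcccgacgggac
Trib3: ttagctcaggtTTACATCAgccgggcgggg
Pycr1: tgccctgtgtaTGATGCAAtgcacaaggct
Chac1: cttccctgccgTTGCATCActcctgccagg

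The match of Asns began 23 bases before the start site and that of Gars 30 bases before it. The printed match of Aars began at base 10 of the transcript. Genes that rose and genes that did not both carried the motif. Within the bases searched, it was in 4 of 13 genes called higher with a promoter (Asns, Aars, Gars and Iars). It was in neither of the 2 called lower, in 3 of 11 not called (Tars, Yars and Trib3) and in both genes under the filter. Bases further away were not searched.

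**Figure D1:**
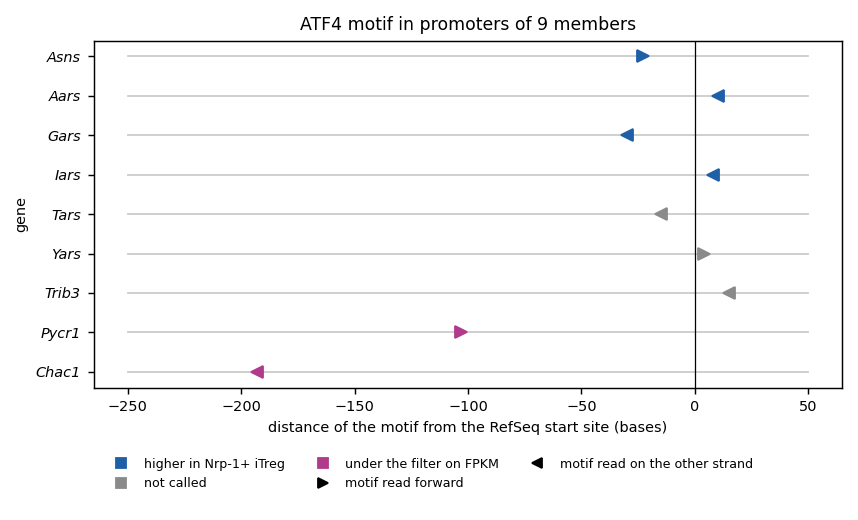
Position of the printed TGATGNAA matches (horizontal axis, bases from the RefSeq start site) in the promoters of the 9 genes that held one, with symbols for the strand and colours for the call between Nrp-1+ and Nrp-1- iTreg. Of the 9 matches shown, 5 lie before the start site and 4 after it.

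The 250 bases before the start site are shown for Asns, which carried the motif and rose, and for Psat1, the member with the largest increase among those tested, whose promoters held no match.
Asns, chr6:7693210-7693459, minus strand: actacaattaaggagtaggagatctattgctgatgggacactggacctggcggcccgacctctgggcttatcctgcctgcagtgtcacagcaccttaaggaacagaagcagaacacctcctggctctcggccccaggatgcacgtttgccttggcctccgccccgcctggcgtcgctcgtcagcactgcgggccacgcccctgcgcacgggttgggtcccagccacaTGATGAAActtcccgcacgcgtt
Psat1, chr19:15925060-15925309, minus strand: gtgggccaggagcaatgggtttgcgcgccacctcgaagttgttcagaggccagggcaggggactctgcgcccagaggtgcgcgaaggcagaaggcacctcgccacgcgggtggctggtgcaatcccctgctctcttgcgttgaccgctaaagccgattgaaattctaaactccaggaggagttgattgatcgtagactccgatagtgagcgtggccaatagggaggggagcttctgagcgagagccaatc

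Nrp1, the gene of the protein used for the sort, was at 22.0, 21.8, 21.6 and 20.4 FPKM in replicates 1 to 4 of Nrp-1+ iTreg and at 4.95, 4.70, 5.31 and 4.83 FPKM in the Nrp-1- subset, in the direction of the labels. Treg and CD4 T cell markers were present in both subsets. Foxp3 averaged 115.8 ± 3.72 FPKM (SD, n = 4) in the Nrp-1+ and 108.8 ± 1.20 FPKM in the Nrp-1- subset, and Cd4 was at 315.0 ± 4.77 and 325.1 ± 11.7 FPKM. Of the 7 markers of this list, Foxp3 and Il2ra were called higher in Nrp-1+ iTreg (limma adjusted p = 0.0245 and 0.000108) and Ctla4 and Cd3g lower (0.000938 and 0.0375). The calls of Foxp3, Ctla4 and Cd3g were lost with quantile normalization (0.0992, 0.0518 and 0.696), and those of Foxp3 and Cd3g also without single libraries. That of Foxp3 was lost as well after correction for GC content and length (limma adjusted p = 0.240). Markers of other cells were low. The summed level in any library was at most 11.3 FPKM for 2 CD8 T cell markers, 5.91 for 5 B cell markers, 1.07 for 5 NK cell markers and 8.39 for 9 myeloid and dendritic cell markers, with Ms4a1 and Pax5 at 0 in all libraries. For 4 erythroid markers it was 5.51 to 7.60 FPKM in the Nrp-1+ subset and 2.05 to 3.35 FPKM in the Nrp-1- subset, with Hba-a1 at 6.10 and 2.52 FPKM. Within these lists Cd8b1 was lower and Itgam and Hba-a1 were higher in Nrp-1+ iTreg, and the call of Cd8b1 was lost after correction for GC content and length (adjusted p = 0.0763 by limma). The subsets also differed in 15 proliferation genes, all called higher, whose summed level was 1644.3 to 1706.4 FPKM against 879.5 to 894.4 FPKM. The part of these differences in the results below was not tested, and in sorted bulk cells more expressing cells and more RNA per cell cannot be told apart. Read counts were not used, but relative depth read from low genes was 0.993 to 1.22 in Nrp-1+ iTreg and 0.809 to 1.23 in Nrp-1- iTreg, with replicate 1 of Nrp-1+ iTreg set to 1.

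Between the subsets, 16 of the 33 tested members were higher in Nrp-1+ iTreg, 2 were lower and 15 were not called, at an adjusted p under 0.05 by limma on log2(FPKM + 1). Of all 10467 genes tested, 20.9% were called higher and 20.0% lower, 40.9% in all. The median log2 fold change was 0.07 over the tested members and -0.02 over all tested genes. In 15 members every Nrp-1+ library lay above every Nrp-1- library and in 2 every one lay below, where 20.2% and 19.3% of all tested genes did so, 39.5% in all. The differences were moderate. The group means of the 16 higher members differed by 6.88% to 75.5%, and 0 tested members reached a log2 fold change of 1. The SD was between 1.54% and 8.12% of the group mean in every tested member.

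**Figure D2:**
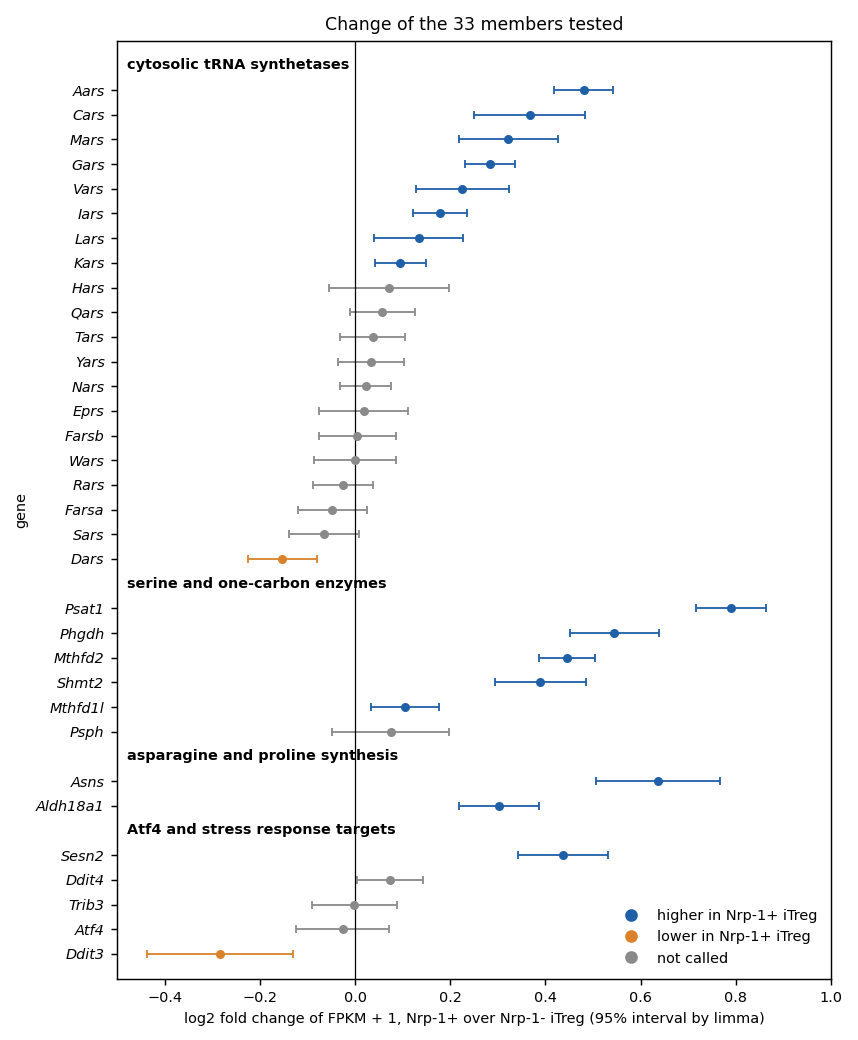
Log2 fold change of FPKM + 1 between Nrp-1+ and Nrp-1- iTreg (horizontal axis) for the 33 tested members (vertical axis, grouped by role), with 95% intervals by limma over 4 libraries against 4. Psat1, Asns, Phgdh, Mthfd2 and Shmt2 lie between 0.39 and 0.79, 11 of 20 synthetases are not called, and Dars and Ddit3 are the members called lower.

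The serine enzymes had among the largest changes. Of the 6 serine and one-carbon enzymes, 5 were higher in Nrp-1+ iTreg and Psph was not called, with a median log2 fold change of 0.42. Phgdh catalyses the first step from glycolysis to serine, Psat1 the next and Psph the last. Psat1 was at 50.0, 48.6, 51.7 and 53.5 FPKM in replicates 1 to 4 of Nrp-1+ iTreg and at 29.7, 28.5, 29.0 and 28.9 FPKM in the Nrp-1- subset. The groups were far apart, with a log2 fold change of 0.79 (standard error, SE, 0.03, limma adjusted p = 6.24e-07), which ranked 254 of all tested genes.

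Phgdh, the member of this pathway with the highest level, was at 120.0, 111.5, 123.7 and 128.4 FPKM against 82.1, 80.9, 82.7 and 84.0 FPKM. Again no libraries overlapped, and the group mean rose by 46.7% (log2 fold change 0.55, SE 0.04, limma adjusted p = 2.14e-05). Psph was at 29.5 ± 1.32 FPKM (SD, n = 4) against 28.0 ± 2.03 FPKM, with overlapping groups and an adjusted p of 0.302 by limma. Within this short pathway the first and the middle enzyme thus differed between the subsets, while the 95% interval of the last ran from -0.05 to 0.20 on the log2 scale.

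Shmt2, the mitochondrial enzyme that splits serine into glycine and a one-carbon unit, was at 31.4, 28.8, 31.9 and 33.2 FPKM in the Nrp-1+ subset and at 24.0, 24.1, 23.1 and 23.4 FPKM in the Nrp-1- subset. Mthfd2, which oxidises that unit in mitochondria, was at 79.0, 78.6, 81.4 and 77.9 FPKM against 58.7, 55.8, 59.5 and 58.0 FPKM. All libraries of Nrp-1+ iTreg were above those of Nrp-1- iTreg in both genes. The log2 fold change was 0.39 for Shmt2 (adjusted p = 0.000166 by limma) and 0.44 for Mthfd2 (adjusted p = 4.59e-06). Mthfd1l, which releases the unit as formate, changed little, from 21.0 ± 0.332 to 22.7 ± 0.906 FPKM (adjusted p = 0.0261). Its call was lost with quantile normalization (adjusted p = 0.103), after correction for GC content and length (0.0615), with the replicate block (0.0633) and without any of 5 single libraries, namely replicates 1, 3 and 4 of Nrp-1+ iTreg and 1 and 3 of Nrp-1- iTreg (0.0522 to 0.0664).

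Asns, which makes asparagine and is a classical target of Atf4, was a low gene with a large change. It was at 7.91, 7.51, 7.06 and 7.99 FPKM in the Nrp-1+ subset and at 4.12, 4.93, 4.43 and 4.71 FPKM in the Nrp-1- subset. The lowest Nrp-1+ library was well above the highest Nrp-1- library, the group mean rose by 67.6%, and the log2 fold change was 0.64 (SE 0.06, limma adjusted p = 5.95e-05). Aldh18a1, which carries out the first steps of proline synthesis, rose from 25.4 ± 0.917 to 31.6 ± 1.30 FPKM (log2 fold change 0.30, adjusted p = 0.000356).

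Pycr1, the last enzyme of that route in mitochondria, was near the limit of detection. It was at 0.306, 0.358, 0.266 and 0.470 FPKM against 0.364, 0.172, 0.155 and 0.206 FPKM. Multiplied by relative depth, these values stood in the ratio of whole numbers of fragments, to within 0.06 of a step, of which the smallest were 17, 20, 18 and 26 against 25, 10, 7 and 11. The groups overlapped through replicate 1 of Nrp-1- iTreg (exact two-sided permutation test, p = 0.114, also after adjustment over the 2 low genes, where the smallest p possible is 0.0286).

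**Figure D3:**
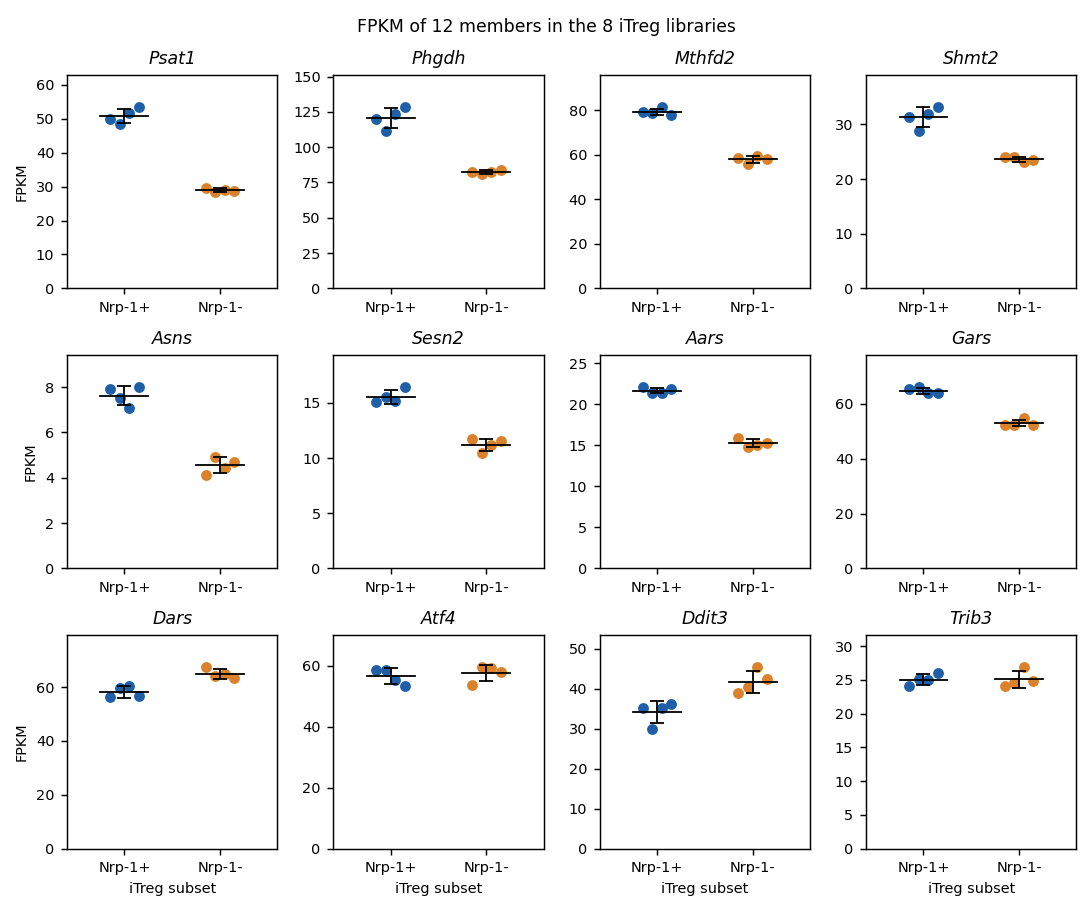
FPKM (vertical axes, starting at 0) of 12 members in each of the 4 Nrp-1+ and 4 Nrp-1- iTreg libraries, with the group mean and SD. Psat1 and Asns are separate and higher in Nrp-1+ iTreg, Dars and Ddit3 are separate and lower, and Atf4 overlaps.

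Of the 20 cytosolic tRNA synthetase genes, 8 were higher in Nrp-1+ iTreg, 1 was lower and 11 were not called, with a median log2 fold change of 0.05. Their share of calls (45.0%) was thus close to that of all genes, while 40.0% were called higher. Levels, which FPKM gives per length, spanned a wide range, from a mean over the 8 libraries of 8.31 FPKM for Cars to 98.1 FPKM for Vars. The summed level of the 20 genes was 838.5 to 857.0 FPKM in the Nrp-1+ subset and 786.7 to 806.5 FPKM in the Nrp-1- subset, so the sums did not overlap. The median level of the 20 genes in a library did, at 31.0 to 32.3 FPKM against 31.3 to 32.1 FPKM, and the abundant genes Vars and Gars gave the largest differences between group means, 15.6 and 11.7 FPKM.

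Aars, the alanine enzyme, had the largest change among them. It was at 22.1, 21.4, 21.4 and 21.8 FPKM in the Nrp-1+ subset and at 15.9, 14.8, 15.1 and 15.3 FPKM in the Nrp-1- subset. Its libraries lay close together within each group, and its log2 fold change was 0.48 (SE 0.03, limma adjusted p = 3.88e-06). Cars (cysteine) rose from 7.13 to 9.49 FPKM in group mean, Mars (methionine) from 13.0 to 16.5 FPKM, Gars (glycine) from 53.0 to 64.8 FPKM and Vars (valine) from 90.3 to 105.9 FPKM. Their log2 fold changes were 0.37, 0.32, 0.28 and 0.23, with adjusted p values from 3.09e-05 for Gars to 0.00370 for Vars, and no libraries overlapped. Iars (isoleucine) rose by 14.1% and Kars (lysine) by 6.88% in group mean, also without overlap (adjusted p = 0.000743 and 0.0126).

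The call of Kars was lost with quantile normalization (adjusted p = 0.0849) and after correction for GC content and length (0.0992), and that of Iars when that correction was combined with the replicate block (0.105). Lars (leucine) was called at 17.6 ± 0.892 against 16.0 ± 0.538 FPKM (adjusted p = 0.0294 by limma), but its groups overlapped through replicate 2 of Nrp-1+ iTreg. That call was lost without any of 6 single libraries, namely replicates 1, 3 and 4 of Nrp-1+ iTreg and 1, 2 and 3 of Nrp-1- iTreg, with adjusted p values from 0.0521 to 0.0746, with quantile normalization (0.0708) and after correction for GC content and length (0.0984).

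Dars, the aspartate enzyme, went the other way. It was at 56.3, 59.6, 60.5 and 56.5 FPKM in the Nrp-1+ subset and at 67.3, 64.0, 64.8 and 63.3 FPKM in the Nrp-1- subset. Every Nrp-1+ library was lower, and the group mean fell by 10.2% (log2 fold change -0.15, SE 0.03, limma adjusted p = 0.00554). When GC content, length and the replicate block all entered the fit, its log2 fold change was -0.19 and its adjusted p was 0.0751.

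The 11 synthetases not called were Eprs (glutamate and proline), Farsa and Farsb (both subunits of the phenylalanine enzyme), Hars (histidine), Nars (asparagine), Qars (glutamine), Rars (arginine), Sars (serine), Tars (threonine), Wars (tryptophan) and Yars (tyrosine). Their 95% intervals lay between -0.14 and 0.20 on the log2 scale. Sars, which uses serine itself, was at 66.0 ± 1.84 FPKM against 69.1 ± 2.53 FPKM (SD, n = 4, adjusted p = 0.139 by limma). Nars, whose amino acid is the product of Asns, was at 51.6 ± 0.802 FPKM against 50.8 ± 1.20 FPKM (adjusted p = 0.481). Wars, a synthetase gene known to respond to interferon, was at 42.6 ± 1.43 FPKM against 42.6 ± 1.95 FPKM. Tars and Yars carry the motif printed above, and their group means were 27.9 against 27.2 FPKM and 18.1 against 17.7 FPKM.

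Some synthetases are held together in the cytosol as a multi-synthetase complex and others act outside it. Of the 8 genes of enzymes in the complex, 4 were higher (Iars, Kars, Lars and Mars) and Dars was lower. Of the 12 outside it, 4 were higher (Aars, Cars, Gars and Vars). Over all tested genes, 20.9% were called higher and 20.0% lower. The calls of Iars, Kars, Lars and Dars were each lost under some alternatives given above, and the difference between enzymes inside and outside the complex was not tested. Of the 3 scaffold genes of the complex, Aimp1 fell from 126.9 ± 5.61 to 116.1 ± 2.93 FPKM (adjusted p = 0.0197 by limma) and Eef1e1 from 21.5 ± 1.29 to 18.7 ± 0.641 FPKM (adjusted p = 0.0101), while Aimp2 was not called. The call of Aimp1 was lost with quantile normalization (adjusted p = 0.129), after correction for GC content and length (0.0592) and without replicate 2 of Nrp-1+ iTreg (0.0521).

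Atf4 itself was at 58.7, 58.7, 55.4 and 53.4 FPKM in the Nrp-1+ subset and at 53.9, 59.5, 59.3 and 57.9 FPKM in the Nrp-1- subset. The groups overlapped, with a log2 fold change of -0.03 (95% interval -0.12 to 0.07, adjusted p = 0.653 by limma). Of the 5 stress response genes besides Atf4, Sesn2 was higher, Ddit3 was lower, Ddit4 and Trib3 were not called and Chac1 was under the filter.

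Sesn2, which restrains mTORC1 when leucine is low, rose from 11.2 ± 0.545 to 15.6 ± 0.610 FPKM (log2 fold change 0.44, adjusted p = 7.87e-05 by limma), with no overlap. Ddit3, which encodes the factor CHOP of the unfolded protein response, was at 35.2, 30.0, 35.1 and 36.1 FPKM in the Nrp-1+ subset and at 38.8, 40.3, 45.3 and 42.4 FPKM in the Nrp-1- subset. Each Nrp-1+ library was below each Nrp-1- library, and the group mean fell by 18.2% (log2 fold change -0.28, SE 0.07, limma adjusted p = 0.0104).

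Trib3, a pseudokinase induced by Atf4 and CHOP, was at 24.0, 25.2, 24.9 and 26.0 FPKM against 24.0, 24.6, 26.9 and 24.9 FPKM. These values overlap, and the log2 fold change was -0.0015 as deposited and 0.0045 with size factors. Ddit4, another inhibitor of mTORC1 and the member with the highest level, was at 381.6 ± 14.3 FPKM against 362.4 ± 5.81 FPKM (SD, n = 4). Its groups overlapped, with an adjusted p by limma of 0.0822 over all libraries and 0.0305 without replicate 2 of Nrp-1+ iTreg.

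Chac1, which degrades glutathione, was at 0.535, 0.390, 0.615 and 0.358 FPKM against 0.115, 0.272, 0.132 and 0.445 FPKM. Multiplied by relative depth, these values stood in the ratio of 15, 11, 21 and 10 fragments to 4, 8, 3 and 12. The group mean was 1.97 times as high in Nrp-1+ iTreg, but replicate 4 of Nrp-1- iTreg lay within the range of Nrp-1+ iTreg (exact two-sided permutation test, p = 0.0857, or 0.114 after adjustment over the 2 low genes).

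Genes on either side of these pathways were counted as well, to be read beside the 20.9% of all tested genes called higher and the 20.0% called lower. Of 10 tested genes of the eIF2 subunits, the eIF2alpha kinases and phosphatases and the kinase partner Gcn1l1, 1 was called. Ppp1r15a, which recruits the phosphatase for eIF2alpha under stress, fell from 22.8 ± 0.803 to 17.8 ± 0.291 FPKM (log2 fold change -0.34, adjusted p = 4.28e-05 by limma). The 4 kinases Eif2ak1 to Eif2ak4 were not called. Of 5 tested partners of Atf4 and related stress factors, Nupr1 (2.81 against 1.28 FPKM, adjusted p = 0.0126) and Atf5 (5.61 against 4.49 FPKM, adjusted p = 0.0213) were higher and 0 were lower. The call of Atf5 was lost with quantile normalization (adjusted p = 0.0501) and without replicate 3 of Nrp-1+ iTreg (0.0549) or replicate 1 or 4 of Nrp-1- iTreg (0.0570 and 0.0572), and over all alternatives 1 to 3 genes of this list were called higher.

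Of 7 tested amino acid transporter genes, 3 were higher and 0 lower. Slc7a5, which imports large neutral amino acids, rose from 16.5 ± 0.671 to 24.8 ± 1.41 FPKM (log2 fold change 0.56, adjusted p = 3.18e-05 by limma). Slc7a1, a transporter of cationic amino acids, rose from 7.07 to 10.0 FPKM and Slc38a1, a glutamine transporter, from 22.2 to 24.0 FPKM (adjusted p = 6.49e-05 and 0.0349). The call of Slc38a1 was lost with the replicate block (0.0660), after correction for GC content and length (0.0902) and without any 1 of 6 libraries, replicates 1 to 4 of Nrp-1+ iTreg and 3 and 4 of Nrp-1- iTreg (0.0541 to 0.0861). With no filter on low values, 5 transporter genes were called higher. Slc3a2, the partner chain of Slc7a5, was at 35.4 ± 1.30 against 33.3 ± 1.64 FPKM and was not called.

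Of 10 tested folate and methionine cycle genes, 7 were higher and 1 was lower. Over the 20 alternatives 5 to 7 were called higher, with another count than 7 in 13 of them, and the lower call was lost in 13. Among the higher genes, the log2 fold change was 0.92 for Tyms, which makes thymidylate, and 0.49 for Gldc, which cleaves glycine. Of 7 other tested amino acid enzymes, Oat, which links ornithine and proline, was the one called, at 57.4 ± 0.452 FPKM against 38.5 ± 1.82 FPKM (adjusted p = 4.47e-06 by limma). Got2, an aspartate aminotransferase, was called as well without replicate 2 of Nrp-1+ iTreg (adjusted p = 0.0389 by limma).

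The 17 mitochondrial tRNA synthetases gave 1 higher (5.88%) and 4 lower (23.5%), 29.4% in all, with a median log2 fold change of -0.05. Of all tested genes, 20.9% were called higher and 20.0% lower, 40.9% in all. Over the alternatives 1 to 2 were higher and 2 to 5 lower, with 2 lower without replicate 2 of Nrp-1+ iTreg and 2 higher with the replicate block or without replicate 1 of Nrp-1- iTreg. Ears2 fell from 2.68 to 2.05 FPKM and Fars2 from 11.3 to 9.72 FPKM (adjusted p = 0.0210 and 0.00358 by limma), and the call of Ears2 was lost with the replicate block (0.0708) and without replicate 2 of Nrp-1+ iTreg (0.0514). The difference between the cytosolic and the mitochondrial list was not tested.

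**Figure D4:**
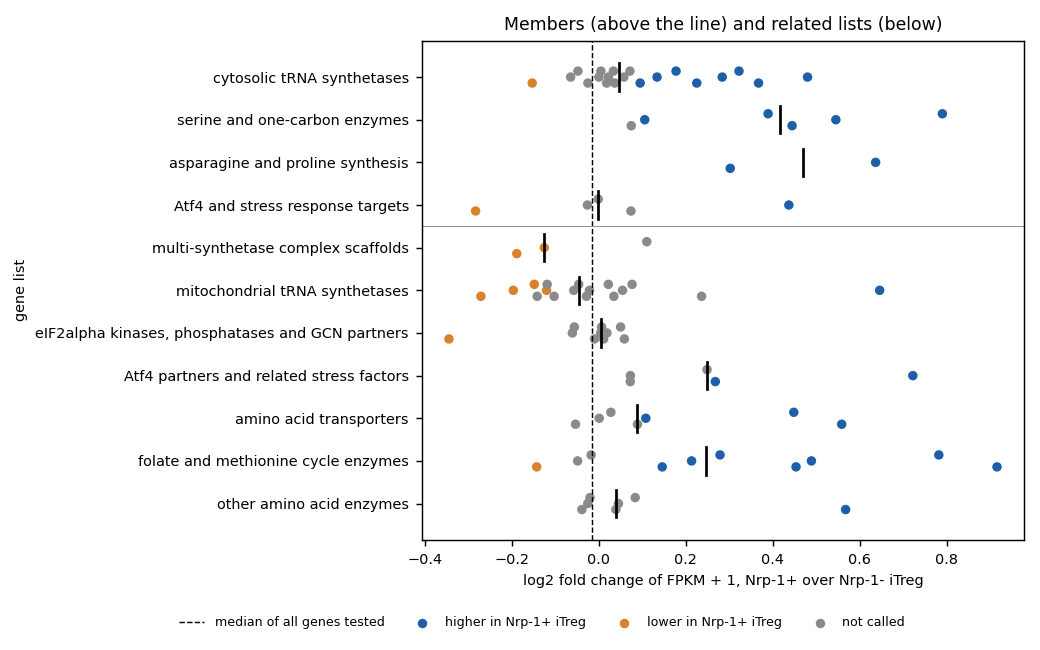
Log2 fold change of FPKM + 1 between Nrp-1+ and Nrp-1- iTreg (horizontal axis) of each tested gene by list (vertical axis), coloured by call, with the median of each list. The median is 0.42 for the serine and one-carbon enzymes, 0.05 for the cytosolic and -0.05 for the mitochondrial synthetases, against -0.02 for all tested genes.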

How the data were processed

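RNA of 8 sorted iTreg samples was sequenced, and the authors deposited 1 table of FPKM values per gene, made with Cufflinks. The submitters' processing notes name the builds GRCm38 and mm10. The deposited FPKM are scaled for length and depth, so differences are relative to the whole library, and no counts were used. The labels name another library kit than the study's methods do. Of 23361 genes, 7072 were at 0 in all 8 libraries.

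Values were taken as log2(FPKM + 1). Genes with a mean of at least 1 FPKM were fitted with limma 3.58.1 (R 4.3.3, trended variance, 4 against 4, no covariate), with Benjamini-Hochberg adjustment over all 10467 genes and a threshold of 0.05. Members under the filter were compared by an exact permutation test. The main fit did not pair libraries by replicate number. Alternatives covered the pseudocount, filter, scaling, variance model, GC content and length, the replicate block and each library left out. Precision rests on 4 libraries a group, and depth is known only in relative terms. The members and lists were chosen with earlier results of these data known. All members are described, and up to 3 called genes with the largest change are named per related list. Aimp2, Slc3a2, Got2, Nrp1 and the genes of the marker lists were named after their values were seen. Promoters came from RefSeq (GRCm38.p6). Some genes of the related lists and 1 motif match are not reported here.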

Additional observations from a re-analysis of the deposited data

Results flagged for a closer look

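In 3 of 70 groups of 4 libraries, 1 library lay far from the others by Dixon's test, where chance gives about 3.5. Eprs measured 24.8 FPKM in the Nrp-1+ replicate 3, against 27.3 to 27.7 FPKM in the others. Gars measured 54.7 FPKM in the Nrp-1- replicate 3, against 52.4 to 52.5 FPKM. Ddit3 measured 30.0 FPKM in the Nrp-1+ replicate 2, against 35.1 to 36.1 FPKM, and without that library its log2 fold change was -0.23 (adjusted p = 0.0137 by limma).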

How the results depend on the processing

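Over 20 alternatives, 23 of the 33 tested members, 13 of the 18 called ones among them, kept their direction and their side of the threshold. With each library left out in turn, 14 to 17 members were called higher and 2 lower, and 1965 to 2061 of all genes were called higher and 1777 to 1916 lower. The median log2 fold change of the members ranged from 0.0646 to 0.0980 there and was 0.0950 with no filter, which adds genes. With the correction for GC content and length and the replicate block combined, 12 members were called higher and 1 lower, and 1344 of all genes were called higher and 1059 lower, against 2189 and 2093. Uncalled members near 0 changed sign. Farsb was at -0.0031 with quantile normalization, -0.0272 with the GC correction, with or without the block, and -0.0244 to 0.0203 with libraries left out. Wars was at -0.0242 with quantile normalization, -0.0084 with array weights, -0.0110 with the GC correction, with or without the block, and -0.0217 to 0.0284 with libraries left out. Atf4 ranged from -0.0579 to 0.00021 and Trib3 from -0.0211 to 0.0305 with libraries left out, and Trib3 was at 0.0045 with size factors. The causes were not tested.

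Libraries with the same replicate number did not deviate together (correlations over genes of -0.54, -0.02, 0.01 and -0.50). Whether a shared number marks a shared animal or culture is not stated, and these correlations over 4 libraries a group cannot settle it. With the replicate block, 15 members were called higher and 2 lower, and 1931 and 1675 of all genes. FPKM of low genes limit what can be said of Chac1 and Pycr1.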
